A study of Homo sapiens with 14 samples.

Results

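The 10 genes followed here make the enzymes of collagen modification, measured by RNA sequencing of a neuroblastoma cell line. They were the collagen prolyl 4-hydroxylase genes P4HA1, P4HA2, P4HA3 and P4HB, the lysyl hydroxylase genes PLOD1, PLOD2 and PLOD3, and the lysyl oxidase genes LOX, LOXL1 and LOXL2. They were chosen by symbol from the gene names of the count files, and all 10 were found among 19923 genes. SK-N-BE2 is an established neuroblastoma line with an amplified MYCN gene, and all 14 libraries came from it. In batch 1, cells with the genotype WT received H2O, CoCl2 at 10 µM or CoCl2 at 50 µM. In batch 2, untreated cells carried the genotype WT or the label TET2 knockout, with knockouts numbered 1, 2 and 3. Each of these 7 groups had 2 libraries. Cobalt chloride is a salt widely used to stabilise hypoxia-inducible factors (HIF), and the TET2 protein converts methylated cytosine of DNA to its oxidised forms. Not given in the labels are the time of exposure to CoCl2, how the knockouts were made, and whether a knockout is 1 clone or a pool. Nothing in the labels says that the libraries of a group came from separate cultures, so p-values measure the spread between these libraries, which may be technical.

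Fibrillar collagen is modified in the endoplasmic reticulum before it is secreted. Prolyl 4-hydroxylase, a tetramer of catalytic α subunits and of the β subunit protein disulfide isomerase, hydroxylates prolines and so stabilises the triple helix, and lysyl hydroxylases hydroxylate lysines. Outside the cell the copper-dependent lysyl oxidases oxidise lysines and hydroxylysines, which then form cross-links. The hydroxylases need iron, oxygen and 2-oxoglutarate, as do TET2 and the prolyl hydroxylases that mark HIF for degradation.

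A library of batch 1 held from 31214128 to 39540111 counts in total, and one of batch 2 from 52095024 to 59263320. The 2 batches were counted with different program versions, so levels are compared within a batch only, and batch and culture cannot be told apart between them. TET2, the targeted gene, was at 70.8 and 64.8 CPM in WT, where CPM are counts relative to the library's total after TMM scaling. It was at 80.4 and 76.6 CPM in labelled knockout 1, at 87.4 and 91.1 CPM in labelled knockout 2, and at 68.2 and 75.4 CPM in labelled knockout 3. The TET2 count therefore did not fall in any group labelled as a knockout, and the labels do not say which part of the gene was altered, so a count over the whole gene does not check the labels. In each batch 11 adrenergic neuroblastoma markers passed the filter on low counts. Of 6 leukocyte markers, PTPRC, CD3E, ITGAM and LYZ did not exceed 4 counts in any library and CD14 did not exceed 70. CD68, a lysosomal protein gene and macrophage marker, was at 5.31 and 5.09 CPM in H2O, at 7.92 and 7.92 CPM at 10 µM and at 19.0 and 18.7 CPM at 50 µM. It was called higher in edgeR at both doses (log2 fold change 0.61, adjusted p = 1.41e-07, and 1.86, adjusted p = 5.95e-52), higher in labelled knockout 2 (0.42, adjusted p = 0.000471) and lower in labelled knockout 3 (-0.53, adjusted p = 0.000166), and was at -0.23 in labelled knockout 1 (adjusted p = 0.149). The summed level of the 6 was 5.75 to 5.95 CPM in H2O, 8.28 to 8.66 CPM at 10 µM and 19.3 to 19.7 CPM at 50 µM. In batch 2 it was 11.8 to 12.9 CPM in WT and 9.96 to 10.6, 15.1 to 16.7 and 7.74 to 9.40 CPM in labelled knockouts 1, 2 and 3. The part of these markers in the results was not tested.

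Levels between genes are given per kilobase of counted exon (RPKM). In H2O, P4HB was the highest of the 10 at 79.6 RPKM, followed by PLOD1 at 76.2, P4HA1 at 40.8 and PLOD3 at 21.0. The other 6 were lower: P4HA2 at 4.13, LOX at 1.83, PLOD2 at 1.54, LOXL1 at 1.13, LOXL2 at 0.897 and P4HA3 at 0.0383 RPKM. In H2O no neighbours in this order had overlapping libraries. In WT of batch 2, P4HB again led at 107 RPKM, PLOD1 followed at 23.6, and P4HA1 (12.8) and PLOD3 (12.6) overlapped between libraries. LOXL2 came next in WT, at 3.11 RPKM. PLOD2 was at 2.45, P4HA2 at 1.73, LOX at 0.848, LOXL1 at 0.676 and P4HA3 at 0.131 RPKM in WT. Within each control group, PLOD1 thus led the lysyl hydroxylases and P4HA1 the α subunits.

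With CoCl2 the 10 genes moved in different directions. At 10 µM, 6 of the 10 genes were called against H2O, 1 higher and 5 lower, where 22.7% of the 13636 genes tested were called, 11.6% higher and 11.1% lower. At 50 µM, 9 of 10 were called, 5 higher and 4 lower, where 61.4% of all genes tested were called, 30.4% higher and 31.1% lower. With library totals in place of TMM, the split of all genes at 10 µM went from 1586 higher and 1512 lower to 1247 higher and 1848 lower. A call is a Benjamini-Hochberg adjusted p under 0.05, over all genes tested in the batch, in the quasi-likelihood test of edgeR. In bulk libraries, fewer cells of a type and less RNA per cell cannot be told apart. With so many genes called at 50 µM, a call alone says little, and the sizes below carry the description. PLOD2, P4HB, P4HA1 and P4HA2 were higher at 50 µM, and the 3 lysyl oxidase genes and PLOD1 were lower. The remaining gene of the 5 called higher was P4HA3, which passed the filter on low counts only through the CoCl2 libraries, so its call adds nothing to that count. The median log2 fold change of the 10 genes was -0.10 at 10 µM and 0.11 at 50 µM, against medians of 0 to 2 decimals over all genes tested. Both doses were compared with the same H2O libraries.

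**Figure D1:**
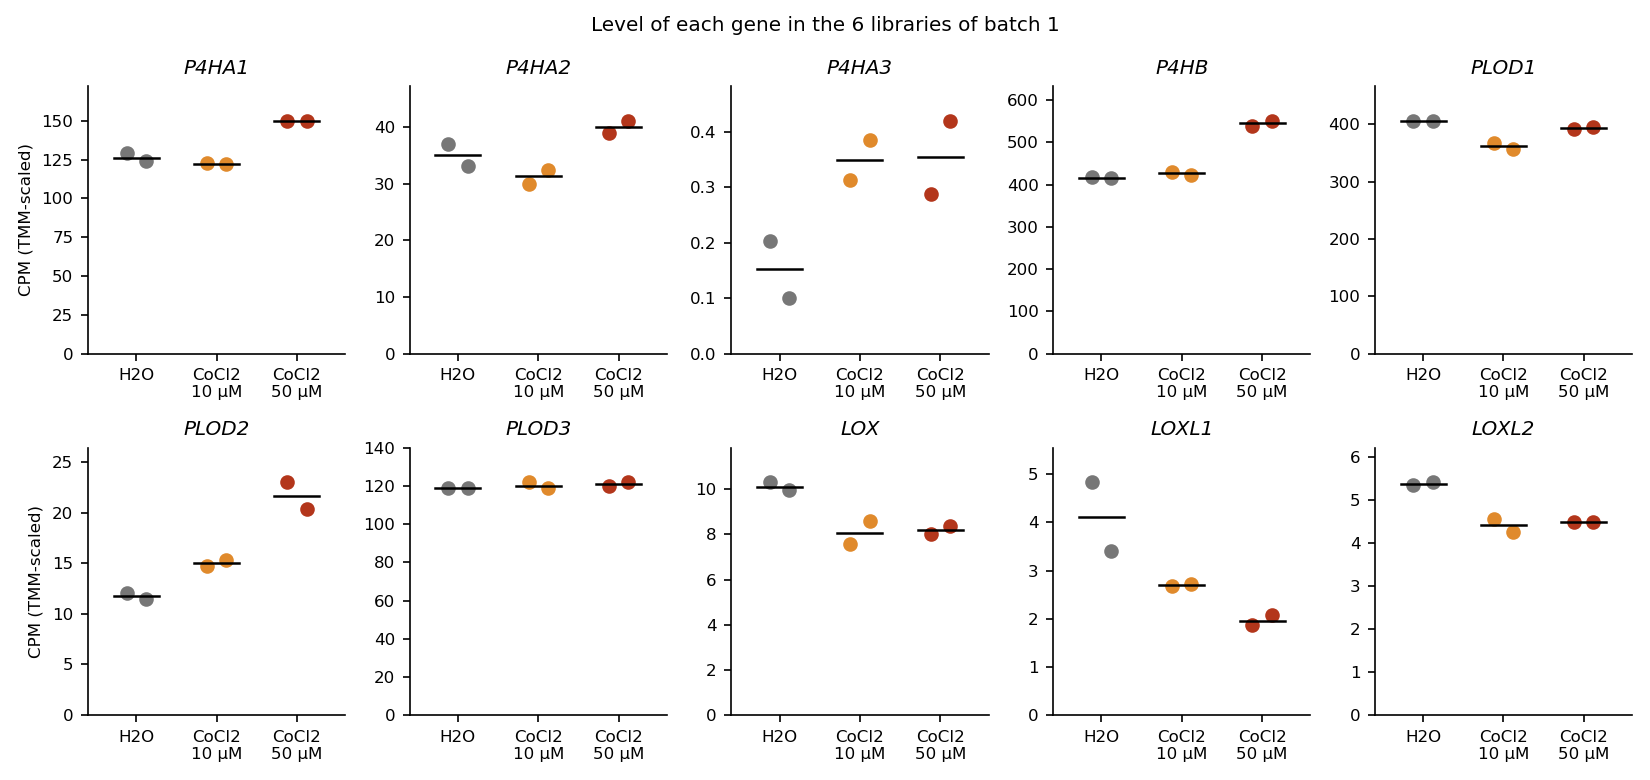
Level of each of the 10 genes in batch 1 in CPM on TMM-scaled totals, with an axis from 0 in each panel. Points are the 2 libraries of a group and the horizontal lines their mean. PLOD2 rose from a mean of 11.8 to 21.7 CPM at 50 µM, and LOXL1 fell from 4.12 to 1.96 CPM.

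Among the prolyl 4-hydroxylase genes, P4HA1 encodes the main catalytic α subunit of most cells. It was at 129 and 124 CPM in H2O, at 123 and 122 CPM with 10 µM CoCl2, and at 150 and 150 CPM with 50 µM. Only the 50 µM libraries stood above H2O, by 0.25 on the log2 scale (SE 0.03, adjusted p = 3.45e-17), and at 10 µM the difference was -0.05 (SE 0.03, adjusted p = 0.202). P4HB encodes protein disulfide isomerase, which is both the β subunit of the tetramer and a chaperone in its own right. P4HB was at 417 and 416 CPM in H2O, at 430 and 424 CPM with 10 µM, and at 540 and 551 CPM with 50 µM. All libraries of the higher dose lay above all others, by 0.39 on the log2 scale against H2O (SE 0.02, adjusted p = 1.89e-51), and the 10 µM value was 0.04 (adjusted p = 0.136).

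P4HA2 encodes another catalytic α subunit. It was at 37.0 and 33.2 CPM in H2O, 30.0 and 32.5 CPM at 10 µM, and 39.0 and 41.1 CPM at 50 µM. The groups did not overlap, and the gene was lower at 10 µM (by log2 fold change, -0.16, SE 0.05, adjusted p = 0.00357) and higher at 50 µM (0.19, SE 0.04, adjusted p = 6.19e-05). The call at 10 µM was lost without H2O replicate 1 (-0.09, adjusted p = 0.321) or without the first 10 µM library (-0.11, adjusted p = 0.179), and that at 50 µM without H2O replicate 2 (0.11, adjusted p = 0.0521). Between the doses P4HA2 rose by 0.36 on the log2 scale (SE 0.05, adjusted p = 6.82e-12), a call kept whichever library was left out.

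P4HA3, another α subunit gene, was barely detected. Its counts were 8 and 4 in H2O, 11 and 15 at 10 µM, and 9 and 15 at 50 µM. It passed the filter on low counts in batch 1 only through the 4 CoCl2 libraries, the group where it was higher. Its log2 fold change was 1.19 (SE 0.51, adjusted p = 0.0823) at 10 µM and 1.22 (SE 0.52, adjusted p = 0.0358) at 50 µM. The second call was lost with no filter (1.21, adjusted p = 0.0590), under DESeq2 (adjusted p = 0.215), with all 14 libraries in 1 fit (adjusted p = 0.160), without H2O replicate 2 (0.80, adjusted p = 0.293) and without the second 50 µM library (0.90, adjusted p = 0.299). P4HA1 made up 90.7% ± 0.442 (SD, n = 2) of the summed α subunit RPKM in H2O, 91.3% ± 0.499 at 10 µM and 91.0% ± 0.324 at 50 µM, so the composition of the α subunits stayed within 1 percentage point while their sum went from 45.0 ± 1.43 to 53.2 ± 0.307 RPKM.

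PLOD2 encodes the lysyl hydroxylase known for modifying collagen telopeptides, which directs cross-links toward the hydroxylysine-derived kind. It was at 12.1 and 11.5 CPM in H2O, at 14.7 and 15.3 CPM with 10 µM CoCl2, and at 23.0 and 20.4 CPM with 50 µM. No groups overlapped, and the order followed the dose. The log2 fold change against H2O was 0.35 (SE 0.07, adjusted p = 2.66e-05) at 10 µM and 0.87 (SE 0.06, adjusted p = 2.65e-27) at 50 µM, and between the doses it was 0.53 (SE 0.06, adjusted p = 1.13e-13). PLOD2 was the only one of the 10 genes called higher at both doses, as were 8.62% of all genes tested. These calls were kept under all 9 other settings and with each library left out.

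PLOD1 and PLOD3, the lysyl hydroxylases for the helical part of collagen, behaved otherwise. PLOD1 was at 406 and 405 CPM in H2O, at 367 and 357 CPM with 10 µM, and at 392 and 396 CPM with 50 µM. It was lowest at the lower dose, at -0.16 on the log2 scale against H2O (SE 0.02, adjusted p = 2.42e-14), and between the doses it rose by 0.12 (SE 0.02, adjusted p = 2.55e-09). At 50 µM it was -0.04 (SE 0.02, adjusted p = 0.0330), a call lost without H2O replicate 1 (adjusted p = 0.0949), without H2O replicate 2 (adjusted p = 0.0727) and without the first 50 µM library (adjusted p = 0.130). PLOD3, which also carries glycosyltransferase activity, was at 119 and 119 CPM in H2O, 122 and 119 CPM at 10 µM and 120 and 122 CPM at 50 µM. Its log2 fold changes were 0.01 (SE 0.03, adjusted p = 0.778) and 0.02 (SE 0.03, adjusted p = 0.521). The 10 µM libraries overlapped both other groups, and the 50 µM libraries lay slightly above those of H2O. PLOD2 made up 1.56% ± 0.0481 (SD, n = 2) of the summed lysyl hydroxylase RPKM in H2O, 2.15% ± 0.102 at 10 µM and 2.89% ± 0.262 at 50 µM, so it remained a minor part of the family's RNA.

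Promoter sequence is shown for the genes that hold the letters ACGTG, one form of the core that HIF binds, because PLOD2 and P4HA1 were higher at 50 µM while LOX was lower. RefSeq entries of build GRCh38.p14 were searched for 8 of the 10 members, in the 250 bases before each start and on both strands. P4HA3 and LOXL2 were not part of this search, so nothing is said of their promoters. ACGTG was found for PLOD2 at 200 and 146 bases before the start, for P4HA1 at 86 bases, and for the first of 3 LOX entries at 185, 116, 98 and 42 bases. The other LOX entries held it once each, at 68 and 117 bases. Neither P4HA2, P4HB, PLOD1, PLOD3 nor LOXL1 held it, and CACGTG, which contains ACGTG, was in none of the 8. Of all 35116 promoter entries, 18.5% held ACGTG and 6.34% held CACGTG. Among the 15755 entries of genes tested in both batches, these shares were 21.9% and 8.16%. Capitals mark ACGTG or its reverse complement, and all 3 runs read 5′ to 3′ on the minus strand of the build. PLOD2 is the whole window at chr3:146161185-146161434, LOX the part outside the counted exons at chr5:122078361-122078509, and P4HA1 the 30 bases around its match at chr10:73096935-73096964.
PLOD2: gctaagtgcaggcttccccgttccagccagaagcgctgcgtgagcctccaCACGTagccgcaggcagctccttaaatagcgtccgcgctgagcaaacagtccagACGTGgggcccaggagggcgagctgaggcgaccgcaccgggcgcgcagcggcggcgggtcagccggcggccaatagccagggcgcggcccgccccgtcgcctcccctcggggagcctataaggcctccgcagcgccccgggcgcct
LOX: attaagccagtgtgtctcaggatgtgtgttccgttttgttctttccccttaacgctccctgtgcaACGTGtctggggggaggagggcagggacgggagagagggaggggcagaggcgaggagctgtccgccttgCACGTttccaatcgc
P4HA1: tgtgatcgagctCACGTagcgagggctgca
These matches describe letters in a window and show no binding. The letters were present in 2 genes that were higher and in 1 that was lower at 50 µM, and absent from P4HB and P4HA2, which were also higher. Other forms of the core were not searched, so this absence holds for ACGTG alone.

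The lysyl oxidase genes were lower with CoCl2. LOX, the founding member that cross-links collagen and elastin, was at 10.3 and 9.98 CPM in H2O, at 7.58 and 8.57 CPM with 10 µM, and at 8.03 and 8.37 CPM with 50 µM. Both CoCl2 groups lay below H2O and overlapped each other. Its log2 fold change was -0.32 (SE 0.08, adjusted p = 0.00150) at 10 µM and -0.30 (SE 0.08, adjusted p = 0.00110) at 50 µM. The first call was lost without the first 10 µM library (-0.24, adjusted p = 0.0785) and the second under DESeq2 (-0.31, adjusted p = 0.0549).

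LOXL1, best known for elastic fibre assembly, was at 4.83 and 3.40 CPM in H2O, at 2.68 and 2.73 CPM with 10 µM, and at 1.86 and 2.07 CPM with 50 µM. No groups overlapped, although the H2O libraries stood apart from each other. The log2 fold change was -0.60 (SE 0.14, adjusted p = 0.000352) at 10 µM and -1.06 (SE 0.16, adjusted p = 8.54e-10) at 50 µM, the largest fall among the 10 genes at either dose. Without H2O replicate 1 the 10 µM value was -0.33 (adjusted p = 0.195), while the 50 µM value stayed between -1.29 and -0.79 with each library left out and was called each time. Between the doses LOXL1 fell by 0.46 (SE 0.17, adjusted p = 0.0209), a call lost under DESeq2 (adjusted p = 0.166), without the second 10 µM library (-0.44, adjusted p = 0.0754) and without the first 50 µM library (-0.38, adjusted p = 0.126).

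LOXL2, a lysyl oxidase with scavenger receptor domains that acts on basement membrane collagen, was at 5.34 and 5.40 CPM in H2O, 4.56 and 4.25 CPM at 10 µM, and 4.48 and 4.48 CPM at 50 µM. The CoCl2 libraries lay below H2O in every case. Its log2 fold changes were -0.29 (SE 0.11, adjusted p = 0.0493) and -0.26 (SE 0.12, adjusted p = 0.0410). Both calls were at the threshold and were lost with any 1 of the 4 libraries left out, when adjusted p ranged upward from 0.0749 at 10 µM and from 0.0826 at 50 µM. The summed RPKM of the 3 oxidases was 3.85 ± 0.307 (SD, n = 2) in H2O, 2.93 ± 0.0993 at 10 µM and 2.77 ± 0.0839 at 50 µM. LOXL3, outside this sum, had a mean of 82.7 CPM in H2O, 72.2 CPM at 10 µM and 72.7 CPM at 50 µM. PLOD1, LOX, LOXL1 and LOXL2 were called lower at both doses, as were 9.09% of all genes tested.

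At 10 µM, PLOD1 and PLOD2 alone kept their calls under DESeq2, where 8.99% of all genes with an adjusted p were called, and again in a fit of all 14 libraries, where 5.49% were. At 50 µM, DESeq2 called 5 of the 10 genes, P4HA1, P4HA2, P4HB and PLOD2 higher and LOXL1 lower, where 41.7% of all genes with an adjusted p were called, 20.3% higher and 21.5% lower. Between 10 µM and 50 µM, 6 of 10 genes were called in edgeR, where 52.8% of all genes tested were called. P4HA1 (log2 fold change 0.29), P4HA2 (0.36), P4HB (0.36), PLOD1 (0.12) and PLOD2 (0.53) were higher at the higher dose, against 26.2% of all genes, and LOXL1 was lower, against 26.5%.

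**Figure D2:**
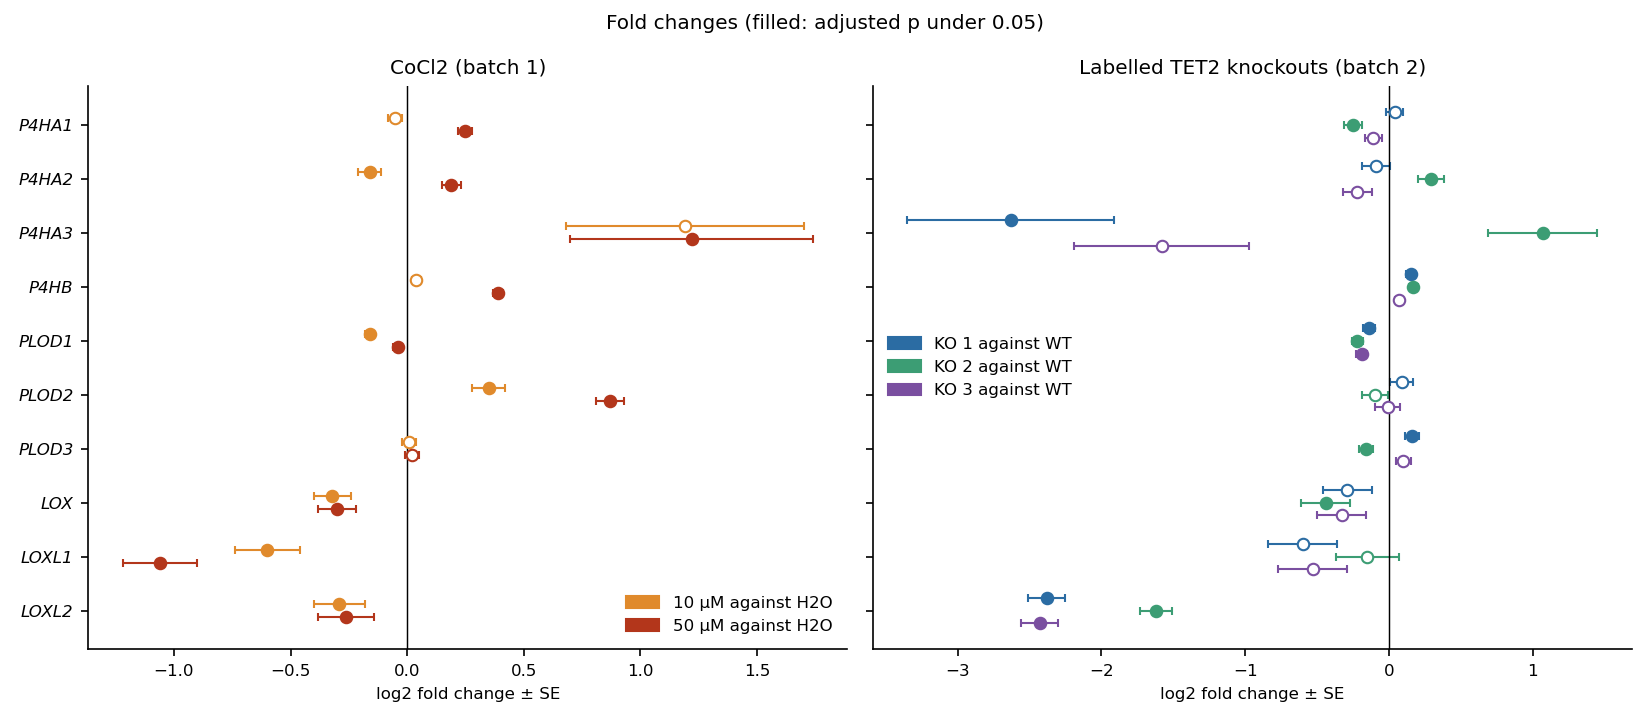
Log2 fold change of each gene with its standard error, for both CoCl2 doses against H2O (left) and for the labelled TET2 knockouts against WT (right). Filled points have an adjusted p under 0.05 in edgeR. The points of the 2 doses share H2O and those of the 3 labelled knockouts share WT, and LOXL2 stands at -2.38, -1.62 and -2.43 on the right.

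The other genes of collagen handling were read from lists. Of 13 other collagen modification and folding genes tested, 3 were higher and 4 lower at 50 µM, with a median log2 fold change of 0.02. SERPINH1, the collagen chaperone HSP47, rose from 103 and 104 CPM in H2O to 143 and 148 CPM (0.49, SE 0.03, adjusted p = 2.66e-41). CRTAP, a partner of prolyl 3-hydroxylase, was also higher (0.15), and the prolyl isomerase FKBP7 (-0.27) and the channel gene TMEM38B (-0.18) were lower. Of 8 procollagen export genes, 2 were higher, among them SEC24D of the COPII coat (0.21), and 3 lower, among them SEC23A of the same coat (-0.27). Of 7 procollagen cleavage genes tested, 2 were higher and 2 lower, with ADAMTS3, a procollagen N-proteinase, at -0.98 (SE 0.04, adjusted p = 3.45e-59). DESeq2 called 2 rather than 4 folding genes lower, and 1 rather than 2 higher in each of the export and cleavage lists.

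Copper supply and other oxidases differed in direction. ATP7A, the pump that loads copper into lysyl oxidases, was at 116 and 119 CPM in H2O, 147 and 148 CPM at 10 µM and 188 and 179 CPM at 50 µM. That order followed the dose, and the log2 fold change at 50 µM was 0.64 (SE 0.02, adjusted p = 7.99e-58). LOXL4, another lysyl oxidase, had 44 and 46 counts in H2O and 20 and 12 at 50 µM (-1.25, SE 0.30, adjusted p = 0.000132). Of the 10 genes tested among other lysyl oxidases, copper genes and matrix partners, 4 were higher and 4 lower, with a median of -0.03. The lower count was 2 under DESeq2, with all 14 libraries in 1 fit and without the first 50 µM library. Collagen chains and elastin had 18 genes tested, of which 3 were higher and 8 lower at 50 µM, with a median of -0.27. COL7A1 (0.72) and COL4A1 (0.38) were higher, and COL9A2 (-1.44) and COL8A2 (-2.57) were lower.

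Other hydroxylases of the same chemistry and HIF targets were counted beside all genes tested, of which 30.4% were higher and 31.1% lower at 50 µM. Of 6 other prolyl and asparaginyl hydroxylases, 4 were higher at 50 µM, led by EGLN3 (0.62) and EGLN1 (0.33), which hydroxylate HIF, and HIF1AN was lower (-0.13). At 10 µM, 2 of the 6 were higher and 0 lower, with a median of -0.01. Of 19 HIF targets outside collagen processing, EGLN1 and EGLN3 again among them, 14 were higher and 2 lower, with a median of 0.27. AK4, a mitochondrial adenylate kinase (0.99), and CA9, a carbonic anhydrase (0.86), led them, and LDHA (-0.16) and PFKFB4 (-0.13) were the 2 lower, neither of them under DESeq2. At 10 µM, 6 of the 19 were higher and 8 lower, with a median of -0.06. Between the doses 17 of the 19 were higher, where 26.2% of all genes were. Of 18 endoplasmic reticulum chaperones and oxidoreductases, 13 were higher and 2 lower at 50 µM, with a median of 0.22. DDIT3, a stress transcription factor, was at 0.84 and MANF at 0.48. P4HB, itself such an oxidoreductase, was not on that list. Among mesenchymal markers, 5 of 12 were higher and 4 lower, and their summed level went from 1906 to 1909 CPM in H2O to 2226 to 2234 CPM at 50 µM. VIM made up most of that sum, at a mean of 1137 CPM in H2O and 1521 CPM at 50 µM. The part of these markers in the results was not tested.

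In batch 2, LOXL2 was lower in all 3 labelled knockouts. It was at 17.5 and 19.7 CPM in WT, at 4.03 and 3.14 CPM in labelled knockout 1, at 5.74 and 6.35 CPM in labelled knockout 2, and at 2.92 and 4.06 CPM in labelled knockout 3. Every library labelled as a knockout lay below both WT libraries. The log2 fold changes were -2.38 (SE 0.13, adjusted p = 7.20e-45), -1.62 (SE 0.11, adjusted p = 8.96e-32) and -2.43 (SE 0.13, adjusted p = 9.49e-46). These calls were kept under all 10 other settings and with each library left out. Of the 10 genes, 5 were called in labelled knockout 1, 2 higher and 3 lower, where 17.5% of the 14061 genes tested were called, 7.79% higher and 9.72% lower. In labelled knockout 2, 8 were called, 3 higher and 5 lower, where 26.3% of genes were called, 12.0% higher and 14.3% lower. In labelled knockout 3, 2 were called, both lower, where 18.9% of genes were called, 8.90% higher and 9.96% lower. With library totals in place of TMM, the split of all genes in labelled knockout 2 went from 1691 higher and 2007 lower to 2365 higher and 1556 lower. LOXL2 and PLOD1 were called lower in all 3, as were 2.84% of genes. P4HA3 is among the genes called in labelled knockouts 1 and 2. It passed the filter on low counts through no library of labelled knockout 1, so its calls add nothing to these counts. The 3 comparisons share the WT libraries.

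**Figure D3:**
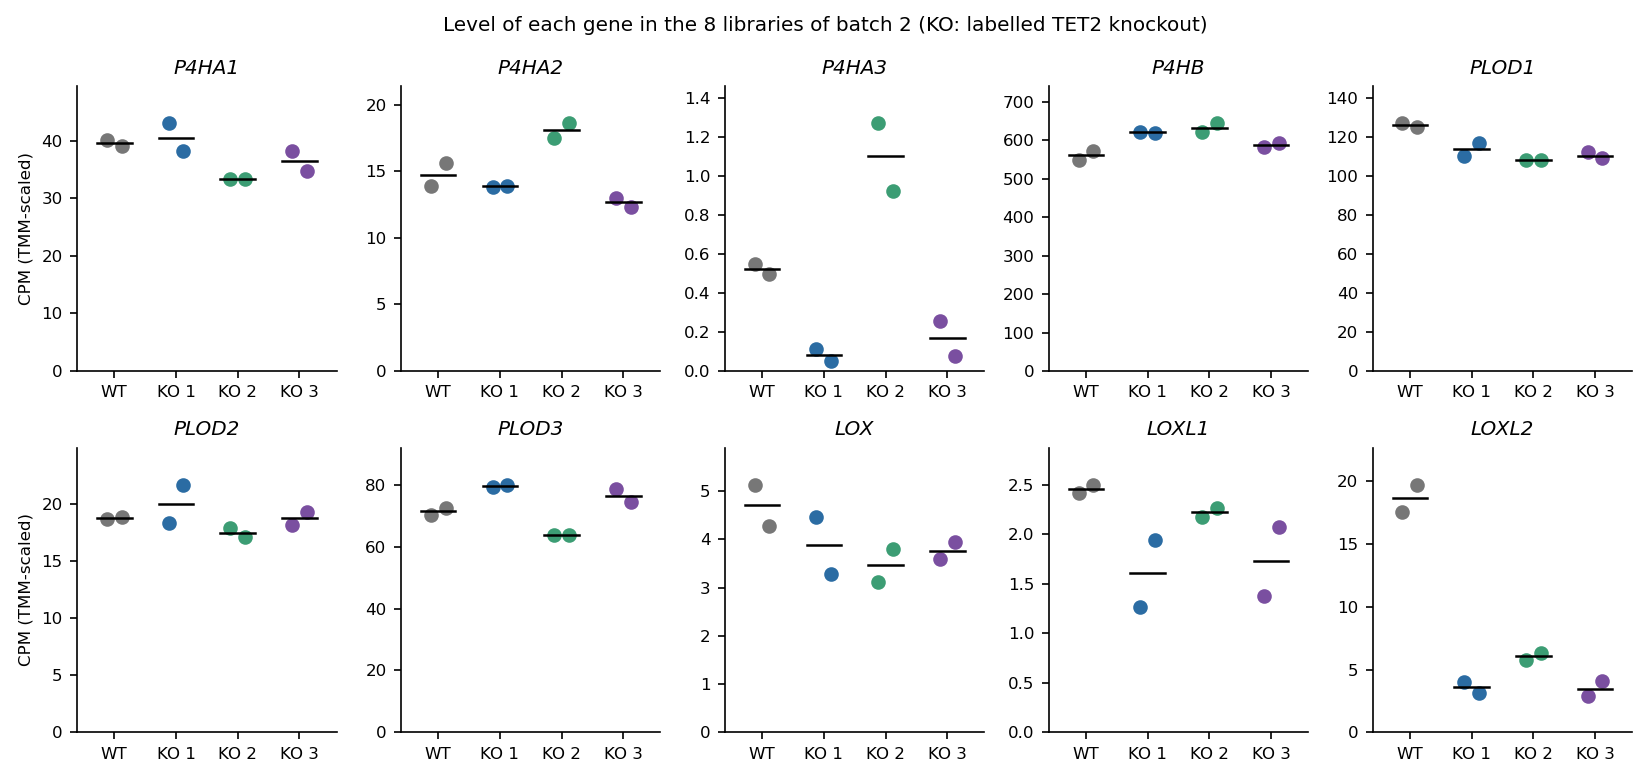
Level of each of the 10 genes in batch 2 in CPM on TMM-scaled totals, with an axis from 0 in each panel; KO stands for a group labelled TET2 knockout. Points are the 2 libraries of a group and the horizontal lines their mean. LOXL2 had a mean of 18.6 CPM in WT and at most 6.04 CPM in a labelled knockout, and P4HA3 had its highest mean, 1.10 CPM, in labelled knockout 2.

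The other oxidases moved less. LOX was at 5.13 and 4.28 CPM in WT, at 4.47 and 3.28 CPM in labelled knockout 1, at 3.12 and 3.80 CPM in labelled knockout 2 and at 3.59 and 3.94 CPM in labelled knockout 3. Only the first of these groups overlapped WT, and the log2 fold changes were -0.29 (adjusted p = 0.263), -0.44 (SE 0.17, adjusted p = 0.0446) and -0.33 (adjusted p = 0.182). The call in labelled knockout 2 was lost without WT replicate 1 (-0.31, adjusted p = 0.329) and without the first library of that knockout (-0.31, adjusted p = 0.358). It was lost in 5 of 10 other settings, among them DESeq2 (adjusted p = 0.139) and the replicate block (adjusted p = 0.0517). LOXL1 was at 2.42 and 2.50 CPM in WT, at 1.27 and 1.94 CPM, 2.17 and 2.26 CPM, and 1.38 and 2.07 CPM in labelled knockouts 1, 2 and 3. All 6 lay below WT, but no group was called (log2 fold changes -0.60, -0.15 and -0.53, adjusted p = 0.0713, 0.680 and 0.110). Without the second library of the group, LOXL1 was called lower in labelled knockout 1 (-0.95, adjusted p = 0.0457) and in labelled knockout 3 (-0.82, adjusted p = 0.0475).

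LOXL2 accounted for 67.0% ± 3.25 (SD, n = 2) of the summed RPKM of the 3 oxidases in WT. Its share was 34.3% ± 3.55, 45.0% ± 0.325 and 33.4% ± 1.72 in labelled knockouts 1, 2 and 3. The sum itself went from 4.63 ± 0.174 RPKM in WT to 1.74 ± 0.126, 2.24 ± 0.176 and 1.74 ± 0.311 RPKM. It leaves out LOXL3 and LOXL4, so it is not the oxidase RNA as a whole. LOXL3 had a mean of 39.9 CPM in WT, where LOXL2 had 18.6 CPM. In labelled knockouts 1, 2 and 3, LOXL3 had means of 39.3, 33.5 and 41.9 CPM.

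**Figure D4:**
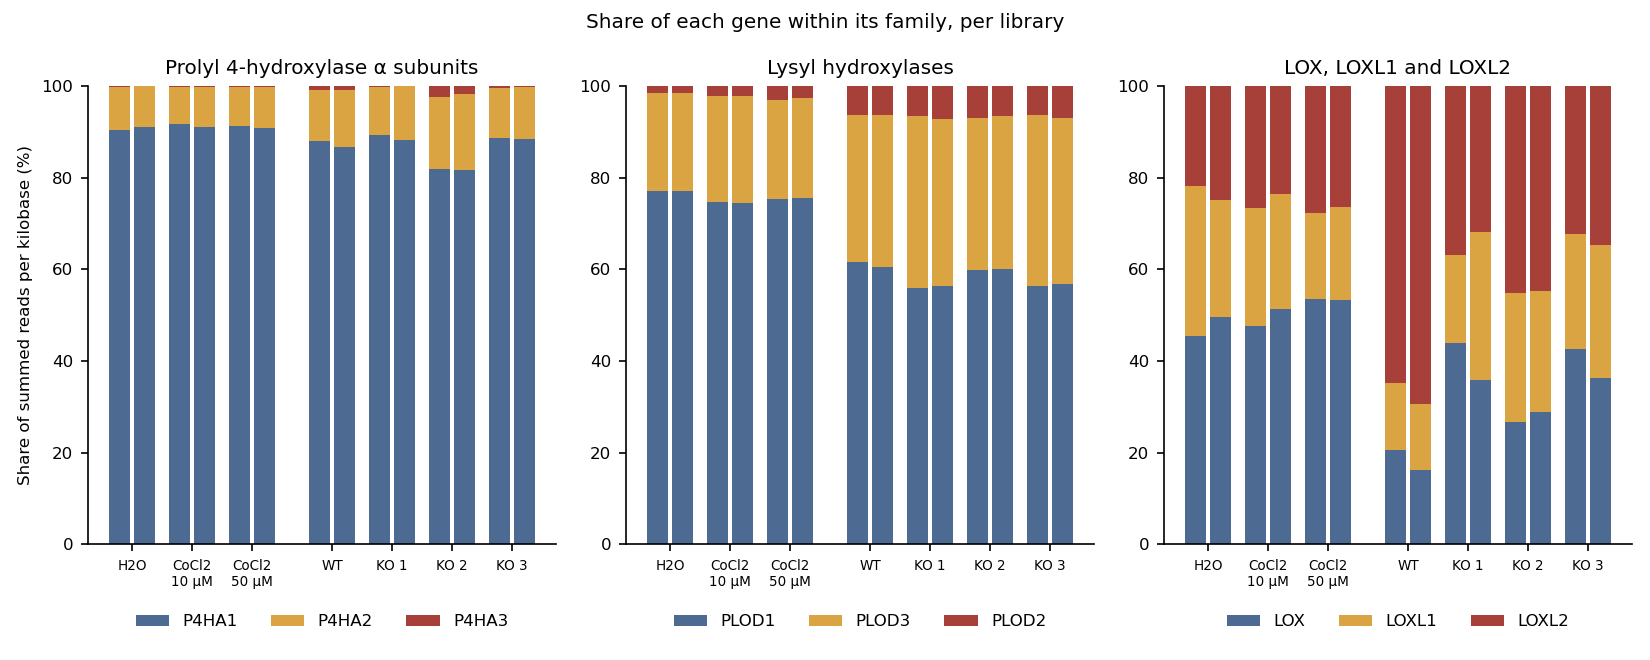
Share of each gene in the summed reads per kilobase of its family, 1 bar per library, batch 1 left and batch 2 right in each panel. The panel of LOX, LOXL1 and LOXL2 leaves out LOXL3 and LOXL4. P4HA1 and PLOD1 hold most of their families in every library, and LOXL2 holds a mean of 67.0% of the 3 oxidases in WT and of 33.4% to 45.0% in the labelled knockouts.

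Among the lysyl hydroxylases, PLOD1 was slightly lower throughout. It was at 127 and 125 CPM in WT, at 110 and 117 CPM in labelled knockout 1, at 108 and 108 CPM in labelled knockout 2 and at 112 and 109 CPM in labelled knockout 3. No group overlapped WT, and the log2 fold changes were -0.14 (SE 0.04, adjusted p = 0.00824), -0.22 (SE 0.04, adjusted p = 8.82e-06) and -0.19 (SE 0.04, adjusted p = 0.000285). The first call was lost without WT replicate 1 (-0.13, adjusted p = 0.0919) and without the first library of labelled knockout 1 (-0.10, adjusted p = 0.191). PLOD2 was at 18.7 and 18.9 CPM in WT and between 17.1 and 21.7 CPM in the labelled knockouts, with log2 fold changes of 0.09, -0.10 and -0.01 and no call (adjusted p = 0.515, 0.417 and 0.975).

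PLOD3 differed between the labelled knockouts in direction. It was at 70.2 and 72.6 CPM in WT, at 79.1 and 80.0 CPM in labelled knockout 1, at 63.9 and 63.7 CPM in labelled knockout 2 and at 78.5 and 74.3 CPM in labelled knockout 3. The value was higher in labelled knockout 1 (0.16, SE 0.05, adjusted p = 0.0148), lower in labelled knockout 2 (-0.16, SE 0.05, adjusted p = 0.00921) and 0.10 in labelled knockout 3 (adjusted p = 0.159). The first call was lost without WT replicate 1 (0.13, adjusted p = 0.143) or without the second library of that knockout (0.15, adjusted p = 0.111). The second was lost without WT replicate 2 (adjusted p = 0.0874) and without either library of that knockout (adjusted p = 0.0659 and 0.0650). The difference among the 3 labelled knockouts was called with each library left out, and its size was 0.32 between the highest and the lowest group (adjusted p = 1.92e-08).

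Among the α subunit genes, P4HA1 was at 40.1 and 39.1 CPM in WT, at 43.1 and 38.2 CPM in labelled knockout 1, at 33.4 and 33.4 CPM in labelled knockout 2 and at 38.2 and 34.8 CPM in labelled knockout 3. Only labelled knockout 2 was called (-0.25, SE 0.06, adjusted p = 0.00156), and the other values were 0.04 and -0.11 (adjusted p = 0.772 and 0.221). P4HA2 was at 13.9 and 15.6 CPM in WT, at 13.8 and 13.9 CPM, 17.5 and 18.6 CPM, and 13.0 and 12.3 CPM in labelled knockouts 1, 2 and 3. It stood above WT in labelled knockout 2 alone (0.29, SE 0.09, adjusted p = 0.00749), a call lost without WT replicate 1 (0.21, adjusted p = 0.167) and without the second library of that knockout (0.25, adjusted p = 0.109). The values in labelled knockouts 1 and 3 were -0.09 and -0.22 (adjusted p = 0.601 and 0.109).

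P4HA3 spread the most. Its counts were 30 and 28 in WT, 6 and 3 in labelled knockout 1, 71 and 51 in labelled knockout 2, and 15 and 4 in labelled knockout 3. It passed the filter on low counts in batch 2 only through WT, labelled knockout 2 and the first library of labelled knockout 3. Its calls here therefore add nothing to the counts of called genes. The gene lay below WT in labelled knockouts 1 and 3 and above WT in labelled knockout 2, with no overlap. The log2 fold changes were -2.63 (SE 0.72, adjusted p = 0.00386), 1.07 (SE 0.38, adjusted p = 0.0259) and -1.58 (SE 0.61, adjusted p = 0.0506). The call in labelled knockout 1 was lost without its second library (-2.17, adjusted p = 0.107). That in labelled knockout 2 was lost without WT replicate 1 (1.13, adjusted p = 0.0907), without WT replicate 2 (1.00, adjusted p = 0.142), without its own first library (0.82, adjusted p = 0.277) and under DESeq2 (adjusted p = 0.203). Labelled knockout 3 was called in 3 of 10 other settings: library totals (adjusted p = 0.0478), the legacy quasi-likelihood fit (adjusted p = 0.0433) and all 14 libraries in 1 fit (adjusted p = 0.0164). The composition of the α subunits differed in labelled knockout 2: P4HA1 held 87.3% ± 0.950 (SD, n = 2) of their summed RPKM in WT and 81.8% ± 0.184 there, and P4HA3 held 0.892% ± 0.0498 and 2.08% ± 0.475.

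P4HB, the β subunit, was at 550 and 573 CPM in WT, at 621 and 620 CPM in labelled knockout 1, at 622 and 645 CPM in labelled knockout 2 and at 583 and 594 CPM in labelled knockout 3. All 6 libraries lay above WT, and labelled knockouts 1 and 2 were called (0.15, SE 0.03, adjusted p = 8.79e-05, and 0.17, SE 0.03, adjusted p = 8.73e-07), while labelled knockout 3 was at 0.07 (adjusted p = 0.104). The ratio of P4HB to the summed α subunit RPKM was 7.31 ± 0.261 (SD, n = 2) in WT and 8.04 ± 0.600, 9.17 ± 0.217 and 8.46 ± 0.653 in labelled knockouts 1, 2 and 3. Within batch 1 the ratio was 1.77 ± 0.0512 in H2O and 1.96 ± 0.0166 at 50 µM. P4HB RNA exceeded that of all α subunits together in every group, and P4HB is known to act outside the tetramer as well.

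Across the 3 labelled knockouts, 6 of the 10 genes differed in an F-test over the groups, where 37.6% of all genes tested did. P4HA3 is among the 6 and, given how it passed the filter, adds nothing to that count. In pairs tested in the same fit, chosen after seeing the data, labelled knockout 2 differed from labelled knockout 1 in P4HA1 (-0.28), P4HA2 (0.38), P4HA3 (3.70), PLOD3 (-0.32) and LOXL2 (0.76). Between labelled knockouts 3 and 1 edgeR called 0 of the 10, and P4HA1 and P4HB were the 2 with an unadjusted value under 0.05 (0.0206 and 0.0144). No other tool was run on these pairs. The share of all genes called in each pair was not counted, so the pair calls cannot be read as particular to these genes. Labelled knockout 2 stood apart from labelled knockout 3 in P4HA2 (0.51), P4HA3 (2.65), P4HB (0.11), PLOD3 (-0.26) and LOXL2 (0.81).

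Collagen chain genes were lower in the same libraries as LOXL2. Of 23 collagen chains and elastin tested in batch 2, 12, 11 and 12 were lower in labelled knockouts 1, 2 and 3, with median log2 fold changes of -0.47, -0.63 and -0.54 against medians of 0 to 2 decimals over all genes. COL3A1, the chain of type III collagen, was at 158 and 152 CPM in WT. It was at 15.1 and 14.6 CPM in labelled knockout 1, at 27.2 and 27.9 CPM in labelled knockout 2 and at 12.4 and 13.3 CPM in labelled knockout 3, at log2 fold changes of -3.38, -2.49 and -3.59. COL4A1, a basement membrane chain, was at -1.25, -1.20 and -1.20 in labelled knockouts 1, 2 and 3, while ELN, the elastin gene, went both ways. ELN was at 5.66 and 6.83 CPM in WT, at 2.76 and 3.24 CPM in labelled knockout 2 (-1.06, adjusted p = 3.67e-08) and at a mean of 9.98 CPM in labelled knockout 3 (0.68, adjusted p = 4.24e-06), and its value in labelled knockout 1 was 0.10 (adjusted p = 0.688). COL15A1 had 12 and 12 counts in WT and 0 in both libraries of labelled knockouts 1 and 3, at least 7.87-fold and 7.91-fold lower against a floor of 3 counts over the group.

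**Figure D5:**
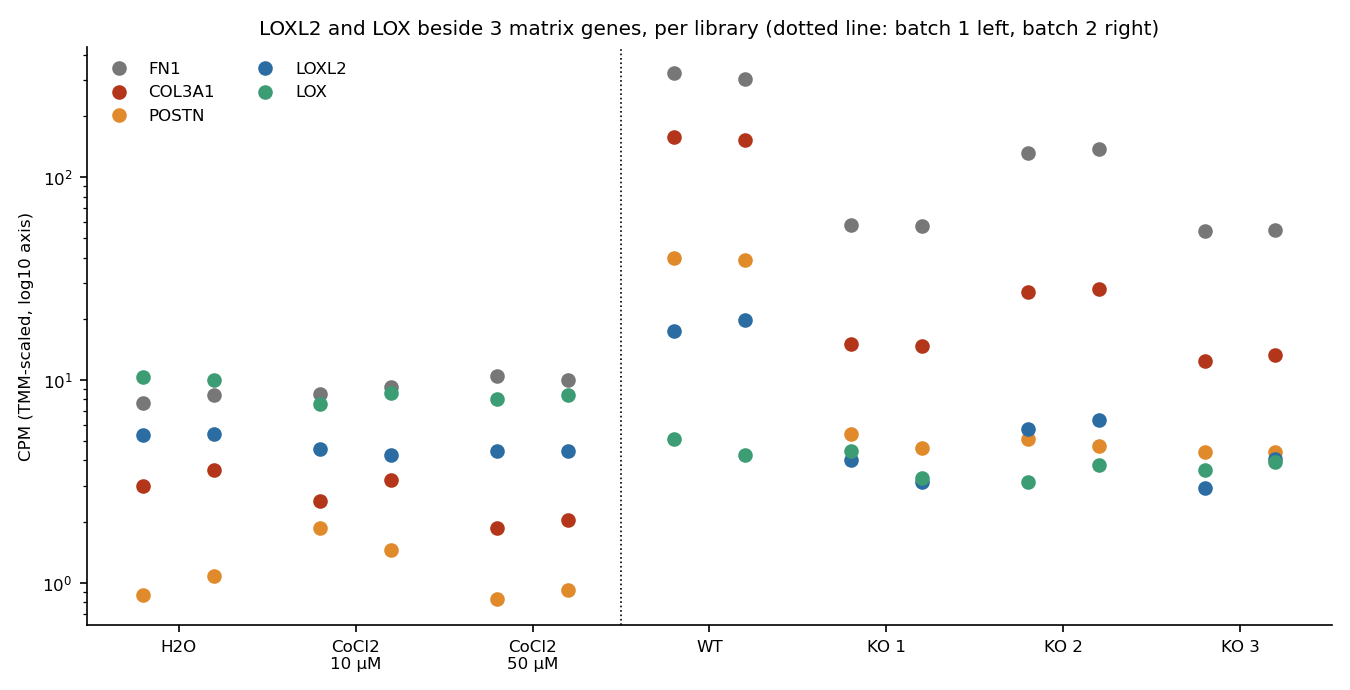
CPM of LOXL2 and LOX beside FN1, COL3A1 and POSTN in each of the 14 libraries, on a log10 axis. LOXL2, FN1, COL3A1 and POSTN are lower in all 6 libraries labelled as knockouts than in WT, and LOX, between 3.12 and 5.13 CPM in batch 2, moves little.

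Of 11 other lysyl oxidases, copper genes and matrix partners, 4, 6 and 5 were lower and 2, 1 and 1 higher in labelled knockouts 1, 2 and 3. POSTN, periostin, which supports LOX activation, was at 39.8 and 38.9 CPM in WT and between 4.39 and 5.40 CPM in the labelled knockouts (-2.98, -3.00 and -3.16). FN1, fibronectin, was at 325 and 306 CPM in WT against 57.7 and 57.6 CPM in labelled knockout 1 (-2.45). FBLN5, an elastic fibre gene with 12 and 22 counts in WT, had 6 and 0 counts in labelled knockout 2 and 2 and 2 in labelled knockout 3 (-2.45 and -2.99), and was at -1.05 in labelled knockout 1 (adjusted p = 0.348). FMOD, fibromodulin, a collagen-binding proteoglycan, was not called (-0.09, 0.32 and -0.52, adjusted p = 0.923, 0.624 and 0.506). SLC31A1, the copper importer, was higher in all 3 (0.39, 0.21 and 0.25), and ATP7A was higher in labelled knockout 1 (0.30). The lower count in labelled knockout 3 was 3 under DESeq2 and without its second library.

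Within the endoplasmic reticulum the collagen genes moved less. Of 14 folding genes, 4, 5 and 4 were lower, with medians of -0.03, -0.08 and -0.02. These counts were 2 without WT replicate 1 or the first library of labelled knockout 1, 3 without the second library of labelled knockout 2, and 2 without WT replicate 1 or the first library of labelled knockout 3. SERPINH1 was lower in labelled knockouts 1 and 3 (-0.24 and -0.44), P3H2, a prolyl 3-hydroxylase, in labelled knockout 2 (-1.12), and CREB3L1, a transcription factor of secretory cells with 30 and 34 counts in WT, in labelled knockouts 1 and 3 (-2.62 and -3.35). Of 8 cleavage genes, 3, 4 and 1 were lower. ADAMTS2, a procollagen N-proteinase, was lower in all 3 labelled knockouts (-0.50, -0.27 and -0.98). PCOLCE, an enhancer of C-propeptide cleavage, was lower in labelled knockouts 1 and 2 (-0.17 and -0.87) and at 0.08 in labelled knockout 3 (adjusted p = 0.144). The count of 4 was smaller without the second library of labelled knockout 2. Of 18 chaperones and oxidoreductases, 2, 8 and 4 were lower, and HSPA5, the chaperone BiP, was at -0.37 in labelled knockout 2. The count of 8 was 5 with library totals and without WT replicate 2 or the first library of that knockout, and the count of 4 was 2 without WT replicate 2 or the first library of labelled knockout 3. Of the 19 HIF targets, 7, 5 and 1 were higher and 1, 4 and 6 lower. AK4 was higher in labelled knockouts 1 and 3 (0.67 and 0.39) and at 0.08 in labelled knockout 2 (adjusted p = 0.520). ADM, adrenomedullin, was lower in all 3 (-1.21, -0.97 and -0.92). Without WT replicate 1 the count of 7 was 1, and without WT replicate 2 the count of 6 was 2.

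Markers of other cell types moved with the fall of LOXL2 and the collagens. The summed level of 8 endothelial markers was 13.8 to 14.3 CPM in WT, 2.26 to 2.70 CPM in labelled knockout 1, 5.26 to 6.33 CPM in labelled knockout 2 and 3.55 to 3.96 CPM in labelled knockout 3. Of these 8, 6, 4 and 5 were called lower. PECAM1, a defining marker, had 144 and 165 counts in WT and from 0 to 12 in the labelled knockouts. Of 14 mesenchymal markers tested, 10, 6 and 9 were lower and 3, 1 and 2 higher, while their summed level was 1517 CPM in both WT libraries and between 1382 and 1527 CPM in the labelled knockouts. VIM alone was at a mean of 839 CPM in WT, so the sum mostly follows VIM and says little of the other markers. PRRX1, a defining mesenchymal factor, did not exceed 0.287 CPM. The part of these markers in the results was not tested.

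Likeness over the 14 libraries was measured as Pearson's r of log2 CPM after subtraction of each batch's mean, among 13373 genes, as a description in which libraries share batch and groups. The genes most like LOXL2 were COL3A1 (r = 0.974) and CCDC80 (0.963), a secreted matrix protein gene. PLOD2 was most like FHL1 (0.950) and BACH2 (0.948), P4HB most like DTL (0.984) and ZNF850 (0.979), and PLOD3 most like PLCB3 (0.972) and SCAP (0.971). For P4HA1 these were EIF1 (0.926) and TMEM69 (0.917), for P4HA2 ADAMTS9 (0.930) and TNNT2 (0.929), and for P4HA3 PCNX2 (0.940) and JAK2 (0.934). For PLOD1 they were MOV10 (0.904) and FREM1 (0.873), for LOX DIXDC1 (0.857) and SPRY2 (0.850), and for LOXL1 WBP4 (0.920) and LRRK2 (0.898). Among the 10 genes themselves the highest r was that of P4HB with PLOD2 (0.79) and the lowest that of P4HA3 with PLOD3 (-0.81).

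Positions are those of the count files, whose build is GRCh38 per the submitters' processing notes. P4HA1 lies on chromosome 10 (73007217 to 73096974, minus strand), P4HA2 on chromosome 5 (132191838 to 132295315, minus), P4HA3 on chromosome 11 (74235801 to 74311640, minus) and P4HB on chromosome 17 (81843161 to 81860624, minus). PLOD1 lies on chromosome 1 (11934205 to 11975538, plus), PLOD2 on chromosome 3 (146069440 to 146163653, minus) and PLOD3 on chromosome 7 (101205977 to 101218420, minus). LOX lies on chromosome 5 (122063195 to 122078360, minus), LOXL1 on chromosome 15 (73925989 to 73952137, plus) and LOXL2 on chromosome 8 (23296897 to 23425328, minus). Counting used no strand option, and where a member overlaps a gene of the other strand (antisense genes from GENCODE 29) their reads cannot be told apart: P4HB shares 10.1% of its exon length with AC145207.3, LOXL1 9.2% with LOXL1-AS1, P4HA2 6.4% with P4HA2-AS1, P4HA3 4.2% with PPME1, LOX 2.5% with SRFBP1, LOXL2 3.0% with AC090197.1 and 2.0% with ENTPD4 on its own strand, and PLOD3 1.8% with ZNHIT1.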

How the data were processed

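RNA of 14 SK-N-BE2 libraries was sequenced. The deposited values are raw counts per gene; per the file headers, the authors made them with featureCounts 1.5.3 (batch 1) or 2.0.5 (batch 2) over exons of GENCODE release 33 protein-coding genes, with the paired option and no strand option. The submitters' processing notes name GRCh38, Trimmomatic 0.36 and STAR 2.6.1d, and Subread 1.5.3 for both batches. In batch 2, 77.3% to 80.5% of counts from 1 to 10 were even, against 39.0% to 42.3% in batch 1, so most batch 2 counts appear to be single reads of a pair. Each batch was fitted alone with edgeR 4.0.16 (R 4.3.3): filterByExpr by group, TMM, 1 coefficient per group, the robust quasi-likelihood fit with the dispersion kept above 0.0001001, and Benjamini-Hochberg adjustment. SE is the log2 fold change divided by the root of F. CPM use TMM-scaled totals, and RPKM divide them by counted exon length. The steps were tested on simulated data. Alternatives were DESeq2 1.42.0, RLE or library totals, no filter, the legacy fit, no dispersion floor, a replicate block, only the groups compared or all 14 libraries in 1 fit, halved batch 2 counts, and each library left out. The members and lists were chosen with earlier results of these data known. All 10 members are named; from each other list, at most the 2 called higher with the largest and the 2 called lower with the smallest log2 fold change are named, at 50 µM and in each labelled knockout. LOXL3 is named outside this rule, for its level. Intervals and floors cover counting error only. One marker gene is not reported here.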

Additional observations from a re-analysis of the deposited data

Results flagged for a closer look

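For 6 of the 10 genes the 3 labelled knockouts differed from each other in edgeR's quasi-likelihood F-test, where 37.6% of all genes tested did. The labelled knockouts share the same WT libraries. P4HA3 passed the filter on low counts through no library of labelled knockout 1, so it adds nothing to that count. The gap between the highest and the lowest labelled knockout, on the log2 scale, was 3.70 for P4HA3 (adjusted p = 3.12e-09), 0.81 for LOXL2 (adjusted p = 3.82e-06), 0.51 for P4HA2 (adjusted p = 1.96e-06), 0.32 for PLOD3 (adjusted p = 1.92e-08), 0.28 for P4HA1 (adjusted p = 0.000650) and 0.11 for P4HB (adjusted p = 0.00882). P4HA1 lost its call without the first library of labelled knockout 1 (0.20, adjusted p = 0.0620). P4HB lost its call without the second library of labelled knockout 2 (0.08, adjusted p = 0.107) and without the first library of labelled knockout 3 (0.09, adjusted p = 0.152).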

How the results depend on the processing

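Of the values of single genes under settings other than a left-out library, 632 kept their direction and side of the threshold, 30 lost their call, 6 gained one and 1 changed sign: PLOD3 at 10 µM with library totals (-0.00091). Called members at 10 µM went from 6 to 2 under DESeq2 and to 2 with all 14 libraries in 1 fit, at 50 µM from 9 to 5 under DESeq2, and in labelled knockout 3 from 2 to 5 with all 14 libraries, which called 26.2% of all genes there. The cause was not tested. With 1 library left out, called members ranged from 3 to 5 (10 µM), 5 to 7 (50 µM), 5 to 6 (between doses), 3 to 5, 5 to 6 and 2 to 3 (labelled knockouts 1, 2 and 3) and 5 to 6 (among them). Uncalled values near 0 changed sign in these fits: PLOD3 at 10 µM (-0.0044 to 0.03); between doses P4HA3 (-0.28 to 0.25), LOX (-0.06 to 0.12), PLOD3 (-0.01 to 0.02) and LOXL2 (-0.03 to 0.08); P4HA1 (-0.05 to 0.12) and PLOD2 (-0.04 to 0.21) in labelled knockout 1; PLOD2 (-0.04 to 0.04) in labelled knockout 3. Over all genes, calls went from 3098 to 1056 (DESeq2) and 796 (all 14) at 10 µM, and from 7198 to 4745 and 4674 between doses. With 1 library left out, calls over all genes ranged from 1860 to 2258 at 10 µM, and from 1375 to 1920, 2406 to 2828 and 1568 to 2390 in labelled knockouts 1, 2 and 3 (from 2462, 3698 and 2653). The replicate numbers did not pair the libraries (correlations of deviations from -0.036 to 0.074). With a replicate block, called members were 5, 8 and 6 in batch 1, 5, 7 and 2 in the labelled knockouts and 6 among them. Over all genes, that fit called 2968, 8303 and 7113 in batch 1, 2228, 3502 and 2458 in the labelled knockouts and 5054 among them. With that block LOXL2 at 10 µM (adjusted p = 0.0541), PLOD1 at 50 µM (0.0502) and LOX in labelled knockout 2 (0.0517) lost their calls in edgeR. Low counts limit P4HA3, and 2 libraries per group limit all values. A fit with 1 library left out has 1 library in that group, so its count of called members is not read as a result about these genes.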
